A study of Mus musculus with 8 samples.

Results

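The 8 genes described here carry the signal of leukaemia inhibitory factor (LIF) in mouse pluripotent stem cells, from the cell surface to the nucleus. They are the receptor chains Lifr and Il6st, the kinases Jak1 and Jak2, the transcription factor Stat3, and 3 genes known to be switched on by it, Socs3, Pim1 and Gbx2. They were chosen by name as the gene symbol of an entry in the deposited tables, and all 8 had an entry of their own in all 8 libraries. They are 8 of the 11894 gene units that passed a filter on low values (at least 1 FPKM in at least 2 libraries).

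LIF binds LIFR, which pairs with the shared signalling chain gp130, the product of Il6st. JAK kinases bound to these chains then phosphorylate STAT3, which enters the nucleus and activates its target genes. SOCS3 in turn blocks gp130 and the JAKs, which makes it a feedback inhibitor. In cultures with serum this pathway is known for holding mouse embryonic stem (ES) cells in the naive, self-renewing state. The files measure RNA and hold nothing on the phosphorylation of STAT3.

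The 8 libraries fall into 4 groups of 2, and LIF and serum were in the medium of all of them. The control is E14tg2a, a wild-type ES cell line of strain 129/Ola at passages 10 to 12. The Dnd1-KD group is ES cells of the same strain, labelled wild type and at the same passages, in which the germ line RNA-binding gene Dnd1 was knocked down, by a method not given in the sources used here. CDGC1 and CDGC6 are 2 pluripotent lines made from nascent teratoma cells in the testis of new-born mice, with the genotype Dnd1ter/ter and an Oct4deltaPE-GFP reporter on the 129Sv background, at passages 15 to 18. Each is a single line, and their strain, genotype, passage and origin all differ from the control, so these cannot be told apart. The labels do not state whether paired libraries derive from different cultures. The p-values therefore rest on a spread between libraries that may be technical alone.

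Values are FPKM, the fragments on a gene per kilobase of transcript, scaled to the mapped fragments of the library. The files give no read counts. The interval that each table prints around its values implied 10696336 to 18008634 fragments per library. Dnd1 itself was listed at 0 in the control, CDGC1 and CDGC6 libraries and was joined with Hars in 1 entry in both Dnd1-KD libraries (57.6 and 53.9 FPKM), so the knockdown could not be checked. The pluripotency gene Pou5f1 stood between 457 and 1339 FPKM in all 8 libraries, and Nanog between 60.5 and 137 FPKM, both lowest in Dnd1-KD. The naive-state genes Zfp42 and Esrrb were at 0.0220 FPKM or listed at 0, and at 0.211 and 0.140 FPKM, in the CDGC1 libraries, against at least 178 and 51.2 FPKM elsewhere. The 6 leukocyte markers with an entry of their own summed to 0.0628 to 1.22 FPKM in any library.

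Against control, 7 of the 8 passed the test in CDGC1, with Jak2 higher and Lifr, Il6st, Jak1, Stat3, Socs3 and Gbx2 lower. In that comparison 50.5% of all units tested passed (23.5% higher, 27.0% lower). In Dnd1-KD 6 of the 8 passed, with Il6st and Jak1 higher and Lifr, Socs3, Pim1 and Gbx2 lower, where 36.2% of all units passed (20.7% higher, 15.5% lower). In CDGC6 only Lifr and Gbx2 of the 8 passed, both lower, where 18.7% of all units passed (8.46% higher, 10.2% lower). Between the derived lines 6 of the 8 passed, with Jak2 higher and Lifr, Il6st, Stat3, Socs3 and Gbx2 lower in CDGC1 than in CDGC6, where 47.2% of all units passed (23.0% higher, 24.1% lower). The median log2 difference of the 8 genes was −0.17 in Dnd1-KD, −0.52 in CDGC1 and −0.16 in CDGC6 against control, beside 0.02, −0.03 and −0.01 over all units tested. The 3 comparisons with control share the control libraries. A test is limma's on log2(FPKM + 1), two-sided, with Benjamini-Hochberg adjustment over all units, a threshold of 0.05 and 2 libraries per group. In these bulk samples fewer cells of a type and less RNA per cell cannot be told apart.

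**Figure D1:**
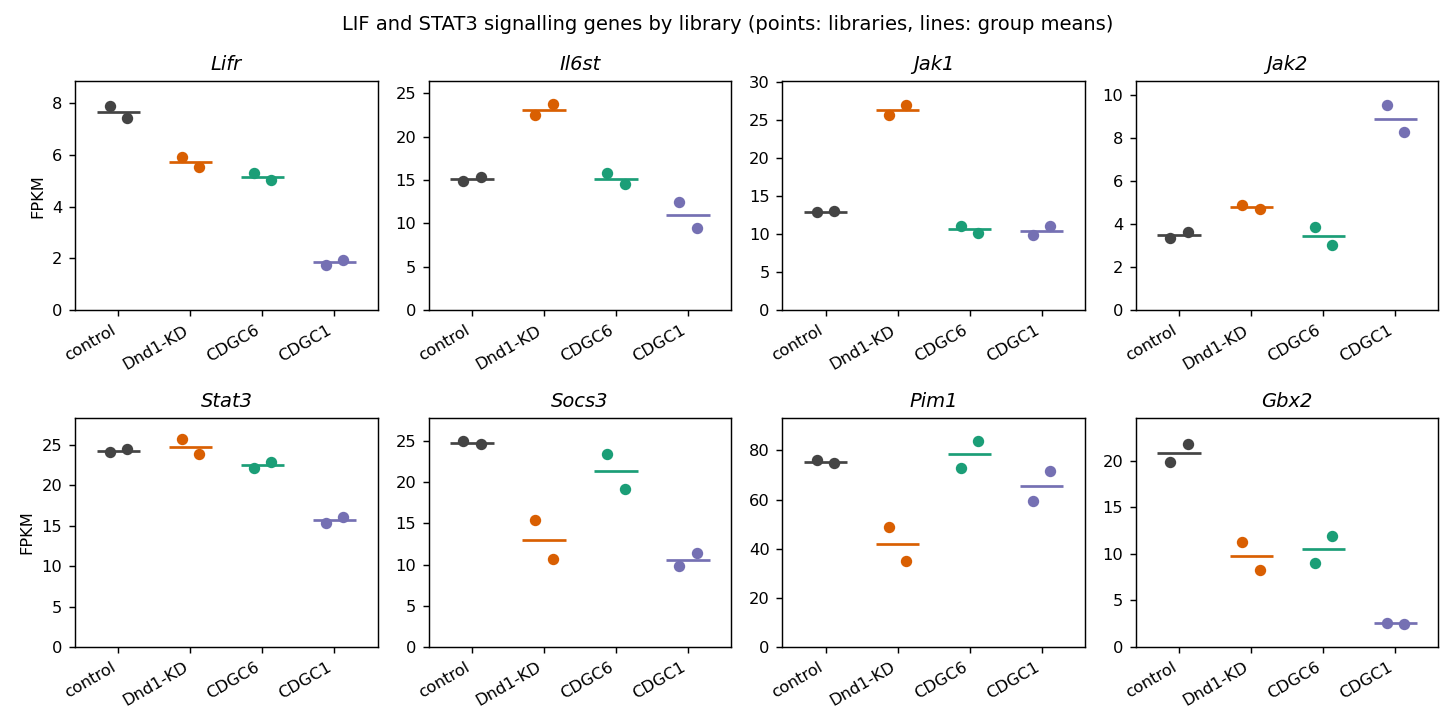
FPKM (linear axis from 0) of the 8 genes in each of the 8 libraries, with 1 panel per gene, a point for each library and a line at the group mean. Lifr and Gbx2 are highest in control and lowest in CDGC1, Jak1 is highest in Dnd1-KD at 25.7 and 27.0 FPKM, and Jak2 is highest in CDGC1 at 9.55 and 8.29 FPKM.

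Lifr encodes the chain that binds LIF and lies at chr15:7090614-7197489 on the plus strand (mm10, GENCODE vM21). It was at 7.89 and 7.44 FPKM in the control libraries, 5.92 and 5.55 in Dnd1-KD, 5.30 and 5.03 in CDGC6, and 1.74 and 1.95 in CDGC1. No 2 groups overlapped, and the order from high to low was control, Dnd1-KD, CDGC6 and CDGC1. The control mean was 4.15 times the CDGC1 mean. The log2 difference of CDGC1 from control was −1.61 ± 0.09 (SE; adjusted p = 4.95e-05) and that from CDGC6 was −1.12 ± 0.09 (adjusted p = 0.000254). CDGC6 differed from control by −0.49 ± 0.09 (adjusted p = 0.0176) and Dnd1-KD by −0.36 ± 0.09 (adjusted p = 0.0248). These 2 smaller differences each lost their call without 1 library. For CDGC6 the adjusted p was 0.137 and 0.104 without the first or second control library and 0.0577 without the second CDGC6 library. For Dnd1-KD it was 0.161 and 0.103 without the first or second control library, and 0.0571 and 0.116 without the first or second Dnd1-KD library. The lowest Lifr values rest on about 148 and 206 fragments in the CDGC1 libraries, as the deposited intervals imply.

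Il6st encodes gp130, the signalling chain that LIFR shares with other receptors of the IL-6 family, and lies at chr13:112464070-112510086 on the plus strand. It was at 14.8 and 15.3 FPKM in control, 22.5 and 23.7 in Dnd1-KD, 15.8 and 14.5 in CDGC6, and 12.5 and 9.47 in CDGC1. The Dnd1-KD libraries were the highest and the CDGC1 libraries the lowest, while CDGC6 and control overlapped. Dnd1-KD was higher than control by a log2 difference of 0.58 ± 0.13 (adjusted p = 0.0174). CDGC1 was lower than control by −0.43 ± 0.13 (adjusted p = 0.0320) and lower than CDGC6 by −0.44 ± 0.13 (adjusted p = 0.0328). The interval of the difference between CDGC6 and control ran from −0.31 to 0.32 (95%, adjusted p = 0.981). The Dnd1-KD call ended without any 1 of its 4 libraries (adjusted p from 0.0535 without the first Dnd1-KD library to 0.0955 without the first control library). The CDGC1 call against control ended without the second CDGC1 library (0.0678), the first or second control library (0.105 and 0.131) or either Dnd1-KD library (0.0540 and 0.0541), with median-ratio scaling (0.0546) and with only the 2 groups fitted (0.0903). The call between the derived lines ended without the second CDGC1 library (0.0653), the first or second CDGC6 library (0.127 and 0.0709), either control library (0.0614 and 0.0613) or either Dnd1-KD library (0.0556 in each case), with median-ratio scaling (0.0521) and with only the 2 groups fitted (0.114).

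Because Lifr and Il6st did not move together, the ratio between them differed from group to group. Il6st stood at 1.88 and 2.06 times the FPKM of Lifr in the control libraries, 2.98 and 2.88 times in CDGC6, 3.79 and 4.28 times in Dnd1-KD, and 7.19 and 4.85 times in CDGC1. No 2 groups overlapped in this ratio, which compares levels per transcript length. In Dnd1-KD Il6st rose while Lifr fell, and in CDGC1 both fell. These ratios are a description, since an exact two-sided permutation test of 2 libraries against 2 cannot go below p = 0.333.

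Jak1, a tyrosine kinase that binds gp130, lies at chr4:101152367-101265282 on the minus strand and shares part of its locus with Raver2 on the plus strand. The library kit does not mark strands, so reads of Raver2 cannot be told apart where the genes overlap. The level of Raver2 was not examined. Jak1 was at 12.9 and 13.0 FPKM in control, 25.7 and 27.0 in Dnd1-KD, 11.0 and 10.2 in CDGC6, and 9.85 and 11.1 in CDGC1. The Dnd1-KD libraries were the highest by a wide margin, and the derived lines overlapped with each other below control. The Dnd1-KD mean was 2.04 times the control mean (log2 difference 0.97 ± 0.09, adjusted p = 0.00148), and this was the only one of the 6 calls in Dnd1-KD that held under all 19 alternative settings, with adjusted p-values from 0.00110 to 0.0192. CDGC1 was lower than control by −0.28 ± 0.09 (adjusted p = 0.0346). That call ended without the first CDGC1 library (0.107), the first or second control library (0.139 and 0.151) or either Dnd1-KD library (0.0530 in each case), with the replicate number as a block (0.0539) and with only the 2 groups fitted (0.0642). CDGC6 was at −0.26 ± 0.09 from control, which did not pass (adjusted p = 0.0820). The derived lines differed by −0.02 with a 95% interval from −0.23 to 0.19.

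Jak2, the other kinase of the set, lies at chr19:29251828-29313080 on the plus strand. It was at 3.38 and 3.65 FPKM in control, 4.92 and 4.70 in Dnd1-KD, 3.87 and 3.01 in CDGC6, and 9.55 and 8.29 in CDGC1. The CDGC1 libraries were the highest, Dnd1-KD came next, and control and CDGC6 overlapped. CDGC1 was at 2.54 times the control mean (log2 difference 1.13 ± 0.13, adjusted p = 0.000667) and 2.59 times the CDGC6 mean (1.16 ± 0.13, adjusted p = 0.000731). Jak2 in Dnd1-KD was at 0.36 ± 0.13 against control (adjusted p = 0.0651). The call was made with only the 2 groups fitted (adjusted p = 0.0216) and without the first or second CDGC6 library (0.0403 in each case). CDGC6 differed from control by −0.03, with a 95% interval from −0.33 to 0.27.

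The largest rise over control was thus in Dnd1-KD for Jak1 and in CDGC1 for Jak2. Both Dnd1-KD libraries also stood above control for Jak2, a difference that did not pass. Jak1 stood at 3.81 and 3.56 times the FPKM of Jak2 in control, 2.85 and 3.38 times in CDGC6, 5.23 and 5.75 times in Dnd1-KD, and 1.03 and 1.34 times in CDGC1. Of the 4 groups CDGC1 had the levels of the 2 kinase genes nearest to each other. Their summed level was 16.2 to 16.6 FPKM in control, 13.2 to 14.9 in CDGC6, 19.4 in both CDGC1 libraries and 30.6 to 31.7 in Dnd1-KD.

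**Figure D2:**
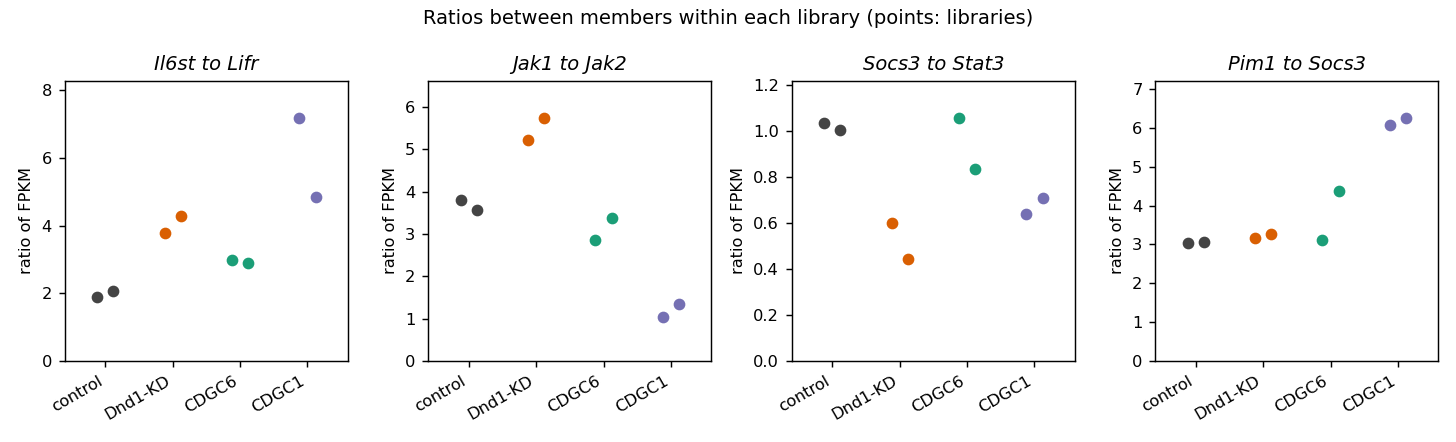
Ratio of FPKM between pairs of the genes within each library (linear axes from 0, 1 point per library, groups on the horizontal axis). The ratio of Il6st to Lifr is lowest in control at 1.88 and 2.06 and highest in CDGC1, the ratio of Jak1 to Jak2 is lowest in CDGC1 at 1.03 and 1.34, and the ratio of Socs3 to Stat3 is 1.04 and 1.01 in control, against 0.598 and 0.445 in Dnd1-KD.

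Stat3, the transcription factor that the kinases activate, lies at chr11:100885098-100939540 on the minus strand, where it overlaps Stat5a on the plus strand. It was at 24.1 and 24.5 FPKM in control, 25.8 and 23.9 in Dnd1-KD, 22.1 and 22.9 in CDGC6, and 15.3 and 16.1 in CDGC1. Only the CDGC1 libraries were clearly low, and Dnd1-KD and control overlapped. CDGC1 was lower than control by a log2 difference of −0.60 ± 0.07 (adjusted p = 0.000928) and lower than CDGC6 by −0.49 ± 0.07 (adjusted p = 0.00231). The difference of Dnd1-KD from control was 0.03, with a 95% interval from −0.14 to 0.20 (adjusted p = 0.784), and that of CDGC6 was −0.10, with an interval from −0.28 to 0.07 (adjusted p = 0.344). The first control library prints an interval from 0 to 6012 FPKM around its Stat3 value, so no fragment number could be derived there. Reads of Stat5a on the other strand, which the TruSeq RNA v2 kit does not mark, cannot be told apart where the genes overlap. Stat5a stood at 0.687 to 1.68 FPKM in the 8 libraries.

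The 3 target genes were lower together in Dnd1-KD, as were 7 of 8 pluripotent cell markers, whose part in the result was not tested. Of all units tested, 15.5% were lower there. Each of the 3 target calls ended in some fit with a library left out, as given below. The sequences just before the start sites of the 3 target genes are shown because STAT3 acts through sites in the DNA near its targets. RefSeq (GRCm38.p6) gave 10 windows for the 8 genes, each with 250 bases before and 50 after a start site. They were searched for TTCNNNGAA, a STAT motif that reads the same on both strands. The windows of Socs3, Pim1 (the first of its 2) and Gbx2 are chr11:117969317-117969616 (minus strand), chr17:29490535-29490834 (plus strand) and chr1:89931127-89931426 (minus strand), printed 5′ to 3′ in lower case with a match in capitals.
Socs3: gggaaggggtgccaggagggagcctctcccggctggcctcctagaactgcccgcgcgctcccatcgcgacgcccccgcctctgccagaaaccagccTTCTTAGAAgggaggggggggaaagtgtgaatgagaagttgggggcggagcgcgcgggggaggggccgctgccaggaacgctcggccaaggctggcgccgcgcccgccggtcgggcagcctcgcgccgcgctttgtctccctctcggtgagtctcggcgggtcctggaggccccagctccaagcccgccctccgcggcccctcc
Pim1: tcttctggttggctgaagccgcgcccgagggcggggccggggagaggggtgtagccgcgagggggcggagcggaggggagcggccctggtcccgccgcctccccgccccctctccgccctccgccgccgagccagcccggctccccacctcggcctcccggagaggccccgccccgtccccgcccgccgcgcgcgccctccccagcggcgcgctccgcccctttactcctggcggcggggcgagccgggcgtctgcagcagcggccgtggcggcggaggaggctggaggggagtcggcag
Gbx2: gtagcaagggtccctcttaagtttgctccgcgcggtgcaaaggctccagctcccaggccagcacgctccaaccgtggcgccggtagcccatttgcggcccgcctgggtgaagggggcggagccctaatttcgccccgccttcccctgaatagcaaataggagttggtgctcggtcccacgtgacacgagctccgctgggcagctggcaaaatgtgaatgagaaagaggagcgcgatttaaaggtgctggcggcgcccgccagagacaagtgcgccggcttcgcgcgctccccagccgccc
Socs3 held the single match, TTCTTAGAA, which begins 154 bases before the start site. No other of the 10 windows held one. The motif was in 8.30% of all 32851 RefSeq windows. The 3 windows printed were rich in G and C, with 73.3% for Socs3, 81.3% for Pim1 and 64.7% for Gbx2. A match is only a run of letters, and its absence says only that these letters are not in the window.

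Socs3, the feedback inhibitor, lies at chr11:117966079-117970047 on the minus strand. It was at 25.0 and 24.6 FPKM in control, 15.4 and 10.6 in Dnd1-KD, 23.4 and 19.2 in CDGC6, and 9.77 and 11.4 in CDGC1. Dnd1-KD and CDGC1 overlapped at the low end, and CDGC6 lay just below control. CDGC1 was lower than control by a log2 difference of −1.16 ± 0.18 (adjusted p = 0.00283) and lower than CDGC6 by −0.94 ± 0.18 (adjusted p = 0.00720). Dnd1-KD was lower than control by −0.90 ± 0.18 (adjusted p = 0.0134). This call was lost without the first or second control library (0.0749 and 0.0641) or the second Dnd1-KD library (0.0505). The CDGC6 difference was −0.22, with a 95% interval from −0.66 to 0.23 (adjusted p = 0.436).

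Pim1 encodes a serine/threonine kinase that promotes survival and lies at chr17:29490753-29496112 on the plus strand, where a transcript named Gm26885 is annotated on the other strand. It had the highest FPKM of the 8 genes in every library. Pim1 was at 75.9 and 75.0 FPKM in control, 48.8 and 34.8 in Dnd1-KD, 72.8 and 83.9 in CDGC6, and 59.3 and 71.4 in CDGC1. Only Dnd1-KD was clearly low. Its log2 difference from control was −0.86 ± 0.17 (adjusted p = 0.0132), and the call ended without the first or second control library (0.0722 and 0.0628). CDGC1 differed from control by −0.21, with a 95% interval from −0.63 to 0.21 (adjusted p = 0.352), and CDGC6 by 0.05, with an interval from −0.37 to 0.47 (adjusted p = 0.863). The derived lines differed by −0.26, with an interval from −0.68 to 0.16 (adjusted p = 0.260).

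Gbx2, a homeobox transcription factor that can sustain ES cell self-renewal downstream of STAT3, lies at chr1:89927956-89931179 on the minus strand, beside a transcript on the plus strand named D130058E05Rik that overlaps it. It had the largest ratio between its highest and lowest group means of the 8 genes. Gbx2 was at 19.9 and 21.9 FPKM in control, 11.3 and 8.28 in Dnd1-KD, 9.08 and 12.0 in CDGC6, and 2.55 and 2.52 in CDGC1. Control was the highest, Dnd1-KD and CDGC6 overlapped in the middle, and CDGC1 was the lowest. The control mean was 8.25 times the CDGC1 mean (log2 difference −2.63 ± 0.17, adjusted p = 9.31e-05). CDGC1 was also lower than CDGC6, by −1.70 ± 0.17 (adjusted p = 0.000629). Gbx2 was lower than control by −1.03 ± 0.17 in Dnd1-KD (adjusted p = 0.00779) and by −0.93 ± 0.17 in CDGC6 (adjusted p = 0.0187). The Dnd1-KD call ended without the second control library (0.0522). The CDGC6 call ended without the first CDGC6 library (0.0643) and without the first or second control library (0.0883 and 0.115). The CDGC1 values rest on about 89 and 156 implied fragments.

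Set against the level of Stat3, Socs3 and Pim1 did not move alike in every group. The ratio of Gbx2 to Stat3 was not computed. Socs3 stood at 1.04 and 1.01 times the FPKM of Stat3 in control, 1.06 and 0.835 times in CDGC6, 0.639 and 0.707 times in CDGC1, and 0.598 and 0.445 times in Dnd1-KD. Pim1 stood at 3.15 and 3.07 times Stat3 in control, 3.29 and 3.66 times in CDGC6, 3.88 and 4.43 times in CDGC1, and 1.89 and 1.46 times in Dnd1-KD. In Dnd1-KD, where the Stat3 difference did not pass, both ratios were below those of control. In CDGC1 the ratio of Socs3 was below control and that of Pim1 above it. The Pim1 ratio was also above control in both CDGC6 libraries. The ratio of Pim1 to Socs3 was 3.04 and 3.05 in control, 3.17 and 3.28 in Dnd1-KD, 3.11 and 4.38 in CDGC6, and 6.07 and 6.27 in CDGC1.

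**Figure D3:**
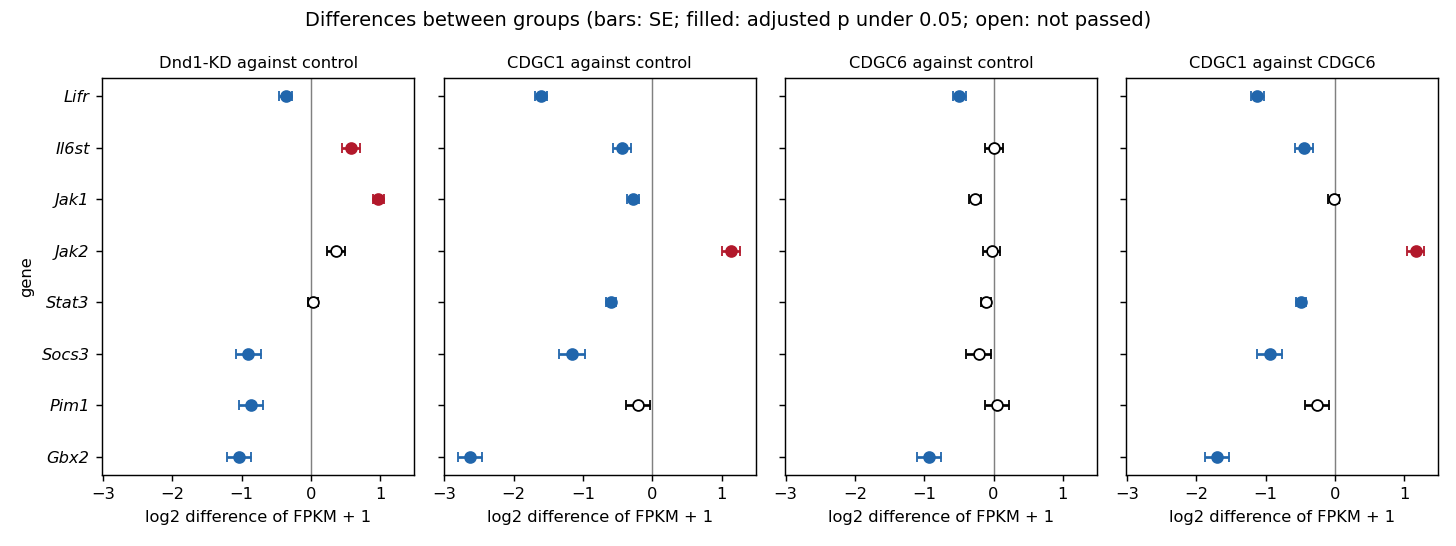
Log2 difference of FPKM + 1 (horizontal axis, bars are the standard error) of the 8 genes in the 4 comparisons, filled where the adjusted p was under 0.05 (red higher, blue lower) and open where it was not. Jak1 reaches 0.97 in Dnd1-KD and Jak2 1.13 in CDGC1, and Gbx2 is farthest below 0 in CDGC1 at −2.63.

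The 2 libraries of a group agreed to different degrees across the 8 genes. In 21 of the 32 pairs of libraries the deposited intervals overlapped, counting Stat3 in control, whose first interval is very wide. They did not overlap in 11, among them Socs3, Pim1 and Gbx2 in Dnd1-KD, where the first library was 1.45, 1.40 and 1.37 times the second. In control all 8 pairs overlapped. These intervals hold counting and assignment error and not the spread between libraries.

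Among the other ligands and receptors of the IL-6 family, Lif itself was measured. Lif stood at 2.59 and 2.92 FPKM in control, 4.33 and 5.27 in Dnd1-KD, 1.30 and 1.27 in CDGC6, and 5.21 and 5.02 in CDGC1. It was higher than control in CDGC1 (log2 difference 0.71 ± 0.11, adjusted p = 0.00263) and in Dnd1-KD (0.62 ± 0.11, adjusted p = 0.00862), lower in CDGC6 (−0.71 ± 0.11, adjusted p = 0.0109), and higher in CDGC1 than in CDGC6 (1.42 ± 0.11, adjusted p = 0.000213). The Dnd1-KD call ended without the first control library (0.0719) and the CDGC6 call without the first or second (0.0628 and 0.0861). The cells also received LIF in the medium, of which these values say nothing. Of the 8 other ligands listed 5 were tested, and 3 rose in Dnd1-KD, 1 rose in CDGC1 and 1 fell in CDGC6. The share of all units that passed was 36.2%, 50.5% and 18.7% in these comparisons. Besides Lif, the risers in Dnd1-KD were Cntf and Clcf1, each measured jointly with a neighbour (Zfp91 and Pold4), with log2 differences of 0.47 and 0.61. Both calls ended without the first control library (0.0899 for Cntf and 0.127 for Clcf1) and without the second (0.0773 and 0.113). That of Cntf also ended without the second Dnd1-KD library (0.0810), and that of Clcf1 without the first (0.104) and with quantile normalization (0.0509). Between the derived lines Lif and Il11 were higher and Clcf1 lower in CDGC1. The Il11 difference was 0.35 ± 0.11, a call that ended in 8 of the 18 settings that tested it (adjusted p up to 0.111), and that of Clcf1 was −0.68 ± 0.16, which ended without the second CDGC1 library (0.0607) or the first CDGC6 library (0.0699).

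Of 5 other receptors 3 were tested. Cntfr, which binds CNTF and signals with LIFR and gp130, was at 34.9 and 36.9 FPKM in CDGC1 against 9.99 and 11.0 in control, 13.6 and 13.5 in Dnd1-KD, and 7.91 and 7.30 in CDGC6. CDGC1 was far above the other groups (log2 difference from control 1.68 ± 0.08, adjusted p = 3.07e-05, and from CDGC6 2.10 ± 0.08, adjusted p = 2.06e-05). Cntfr was also higher than control in Dnd1-KD (0.34 ± 0.08, adjusted p = 0.0234) and lower in CDGC6 (−0.42 ± 0.08, adjusted p = 0.0221). The Dnd1-KD call ended without any 1 of its 4 libraries (0.0690 to 0.160) and the CDGC6 call without the second CDGC6 library (0.0729) or either control library (0.0883 and 0.160). Il6ra, the receptor chain for IL-6, was higher in CDGC1 than in control (0.55 ± 0.17, adjusted p = 0.0356, a call that ended in 9 of the 18 settings that tested it, with adjusted p up to 0.137) and than in CDGC6 (0.80 ± 0.17, adjusted p = 0.00989). Osmr, the receptor chain for oncostatin M, was below the filter, between 0.106 and 0.770 FPKM.

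Of the 8 other JAK kinases and STAT factors, all tested, 1 rose and 0 fell in Dnd1-KD by limma (1 higher and 3 lower at an unadjusted p under 0.05), 3 fell in CDGC1, and 0 passed in CDGC6 by limma (1 at an unadjusted p under 0.05), where Tyk2 passed in 6 of 19 settings. Beside these counts, 36.2% of all units passed in Dnd1-KD, 50.5% in CDGC1 and 18.7% in CDGC6. In Dnd1-KD the log2 difference was −0.63 for Jak3 (adjusted p = 0.0657), −0.33 for Stat4 (0.0584) and −0.33 for Tyk2 (0.0855). Each passed as lower with quantile normalization (0.0221, 0.0484 and 0.0184) and with median-ratio scaling (0.0456, 0.0492 and 0.0397). Stat5a, which overlaps Stat3, was higher in Dnd1-KD (0.56 ± 0.14, adjusted p = 0.0265), and the call ended without any 1 of the 4 libraries (0.0830 to 0.131). Tyk2, another JAK kinase that can bind gp130, fell in CDGC1 from 7.61 ± 0.256 to 3.19 ± 0.503 FPKM (SD, n = 2; log2 difference −1.04 ± 0.13, adjusted p = 0.000944 by limma). Stat4 fell in CDGC1 from 2.78 ± 0.0284 to 1.31 ± 0.0168 FPKM (−0.71 ± 0.11, adjusted p = 0.00255 by limma). Jak3, measured jointly with Insl3, fell from 9.27 ± 0.771 to 4.29 ± 1.71 FPKM (−0.99 ± 0.22, adjusted p = 0.0104 by limma), and was not called without the second control library (0.0582) and with only the 2 groups fitted (0.0504). The same 3 genes were lower in CDGC1 than in CDGC6 (Stat4 −0.91, Jak3 −1.13 and Tyk2 −0.62). Jak2 was therefore the only JAK entry called higher in CDGC1 than in control. Jak1, Tyk2 and the joint entry of Jak3 and Insl3 were lower, and only the Tyk2 call among these falls held in every setting. Which gene of the joint entry moved cannot be told.

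Of 15 other inhibitors and phosphatases, all tested, 5 rose and 1 fell in Dnd1-KD, 5 rose and 3 fell in CDGC1, and 1 fell in CDGC6. Of all units tested, 36.2% passed in Dnd1-KD, 50.5% in CDGC1 and 18.7% in CDGC6, so the Dnd1-KD and CDGC1 counts are near these shares. Socs1, another SOCS inhibitor of JAKs, went the other way from Socs3 in CDGC1. It was at 7.71 and 8.75 FPKM there against 3.24 and 3.62 in control (log2 difference 1.06 ± 0.13, adjusted p = 0.00103). Ptpn11, also called SHP2, a phosphatase that links gp130 to the ERK pathway, rose in CDGC1 from 27.4 to 42.1 FPKM (0.60 ± 0.08, adjusted p = 0.00111) and in Dnd1-KD to 37.0 FPKM (0.42 ± 0.08, adjusted p = 0.00920), and was higher in CDGC1 than in CDGC6 (0.70 ± 0.08, adjusted p = 0.000733). Pias2, of the protein family of inhibitors of activated STATs, fell in CDGC1 from 60.5 to 25.6 FPKM (−1.21 ± 0.11, adjusted p = 0.000284) and was lower than in CDGC6, at 52.1 FPKM (adjusted p = 0.000742). Ptpn1, a phosphatase that acts on JAKs, was higher in CDGC1 than in CDGC6 (0.63 ± 0.07, adjusted p = 0.000992) and in Dnd1-KD than in control (0.37 ± 0.07, adjusted p = 0.0122). Socs7 rose in Dnd1-KD (0.47 ± 0.10, adjusted p = 0.0167). Cish, a SOCS gene induced by STAT5, fell in both CDGC6 (−0.47 ± 0.08, adjusted p = 0.0131) and CDGC1 (−0.46 ± 0.08, adjusted p = 0.00374). The Dnd1-KD calls of Ptpn11, Ptpn1 and Socs7 ended without the first control library (0.0696, 0.101 and 0.0949) and without the second (0.0601, 0.0626 and 0.0957). Those of Ptpn1 and Socs7 also ended without the second Dnd1-KD library (0.0645 and 0.0657), and that of Socs7 without the first (0.0692). In CDGC6 the Cish call ended without the first or second control library (log2 difference −0.49 and −0.45). In CDGC1 it ended with quantile normalization (adjusted p = 0.0775).

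Of 15 other genes known as LIF or STAT3 targets 14 were tested. In Dnd1-KD 7 were lower and 2 higher (median log2 difference −0.42, beside 0.02 over all units), in CDGC1 8 lower and 4 higher (median −0.62, beside −0.03), and in CDGC6 by limma 0 lower and 1 higher (2 and 2 at an unadjusted p under 0.05; median −0.06, beside −0.01). Of all units tested, 15.5% were called lower and 20.7% higher in Dnd1-KD, 27.0% and 23.5% in CDGC1, and 10.2% and 8.46% in CDGC6. Klf4, a Krüppel-like factor of the naive state, was at 35.1 and 37.3 FPKM in control, 25.7 and 23.8 in Dnd1-KD, 22.8 and 29.5 in CDGC6, and 1.05 and 1.19 in CDGC1. Tfcp2l1, a transcription factor that can replace LIF in self-renewal, was at 26.5 and 25.9 FPKM in control, 16.6 and 12.5 in Dnd1-KD, 26.6 and 28.5 in CDGC6, and 0.904 and 0.857 in CDGC1. Both were far lower in CDGC1 than elsewhere. Against control, the log2 difference in CDGC1 was −4.13 ± 0.13 for Klf4 (adjusted p = 8.24e-06) and −3.86 ± 0.13 for Tfcp2l1 (adjusted p = 1.04e-05), and against CDGC6 it was −3.67 ± 0.13 and −3.92 ± 0.13 (adjusted p = 1.51e-05 and 1.39e-05). Pim3, a relative of Pim1, was lower in CDGC1 than in CDGC6 (−0.97 ± 0.08, adjusted p = 0.000306) and lower in Dnd1-KD than in control (−0.57 ± 0.08, adjusted p = 0.00477). The entry of Pim2, the other relative, was joined with Otud5 and Slc35a2. It was higher in CDGC1 (2.32 ± 0.09, adjusted p = 1.55e-05) and in CDGC6 (1.29 ± 0.09, adjusted p = 0.00116) and lower in Dnd1-KD (−0.58 ± 0.09, adjusted p = 0.00656, 0.0522 without the first control library), and which of the 3 genes moved cannot be told. Ier3, an immediate early gene, rose in Dnd1-KD from 6.69 to 12.3 FPKM (0.79 ± 0.10, adjusted p = 0.00339). Among the calls on these targets in Dnd1-KD, only those of Pim3 and Ier3 held in every setting. Those of Klf4, Klf5, Tfcp2l1, Myc, Bcl3, Pim2 and Cebpb each ended in some.

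**Figure D4:**
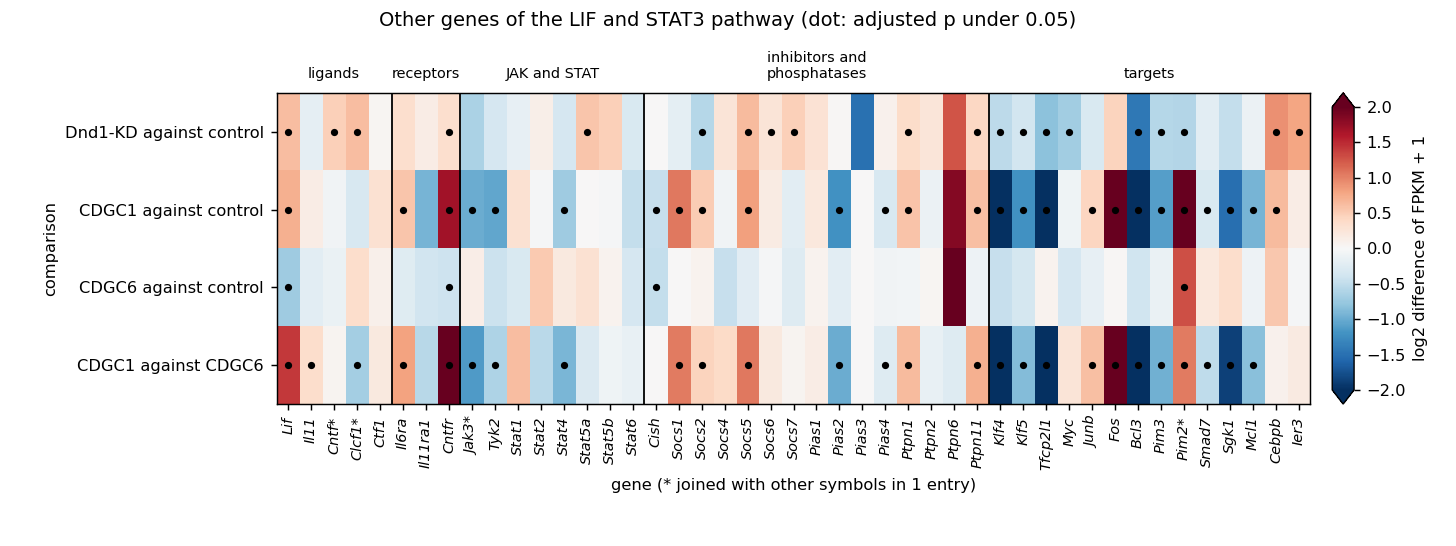
Log2 difference of FPKM + 1 (colour, red higher and blue lower in the first group named, clipped at 2 in each direction) of the other pathway genes that passed the filter, by comparison (rows) and role (blocks), with a dot where the adjusted p was under 0.05. CDGC6 against control holds 4 dots, CDGC1 against control 26, and Il11ra1, Pias3 and Ptpn6 each have 1 library listed at 0, which can be a failed estimate.

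Of the 8 pluripotent cell markers 7 were lower in Dnd1-KD than in control, beside the lower STAT3 targets there, with a median log2 difference of −0.80. Among all units 15.5% were lower there. Their summed level was 1039 to 1251 FPKM in Dnd1-KD, 2028 to 2041 in control, 2056 to 2420 in CDGC6 and 1475 to 1505 in CDGC1. Pou5f1 was at −0.93 in Dnd1-KD (adjusted p = 0.00289), Sox2 at −0.90 (0.00566) and Nanog at −0.80 (0.0200, lost in 3 settings with up to 0.0974). Lin28a, Utf1, Zfp42 and Sall4 were the others, and Esrrb did not pass (−0.45, adjusted p = 0.0910). Of the 7 calls that of Sall4 was nearest the threshold (−0.39, adjusted p = 0.0455). The calls of Sox2, Lin28a, Utf1 and Sall4 were not followed through the alternative settings in any comparison. The Zfp42 call ended without the first or second control library (log2 difference −0.82 and −0.75) or the second Dnd1-KD library (−0.62). In CDGC1 Sox2, Sall4, Utf1, Zfp42 and Esrrb were lower and Lin28a higher than in control. Of these calls that of Sall4 was nearest the threshold (−0.37, adjusted p = 0.0406). Among all units 27.0% were lower and 23.5% higher in CDGC1. In CDGC6 by limma 0 of the 8 markers passed (2 at an unadjusted p under 0.05, both higher), where 18.7% of all units passed.

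Markers of other cell types moved with some of these groups. The 9 fibroblast or feeder markers with an entry of their own summed to 7.00 to 7.66 FPKM in control, 10.0 to 10.3 in Dnd1-KD, 24.7 to 32.3 in CDGC6 and 33.7 to 35.1 in CDGC1. Of 7 tested, 6 were higher in CDGC1 and 6 in CDGC6 than in control (S100a4, joined with S100a3, is 1 of them in each), while Dcn, Lum and Fap stayed under 1 FPKM in all 8 libraries. Among all units 20.7% were higher in Dnd1-KD, 23.5% in CDGC1 and 8.46% in CDGC6. The 8 endoderm markers summed to 3.52 to 3.67 FPKM in control, 10.3 to 10.8 in Dnd1-KD, 5.37 to 9.45 in CDGC6, and 11.5 and 46.6 in CDGC1, the last mostly from Foxa2. Of 4 tested, Gata4, Gata6 and Dab2 were higher in Dnd1-KD, while in CDGC1 Foxa2 was higher (log2 difference 3.96, adjusted p = 0.00337) and Gata4 lower (−0.49, adjusted p = 0.00824). Ttr was listed at 0 in all 8 libraries. Their part in the results on the 8 genes was not tested.

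The genes whose pattern was most like each of the 8 were looked up among 7090 genes with a mean of at least 5 FPKM and no library at 0, by Pearson's r of log2(FPKM + 1) over the 8 libraries. The 8 libraries fall into 4 pairs, so a high r shows mostly that the 4 group means lie in the same proportion. Taf1, Slc50a1 and Klhl13 were nearest to Lifr (r from 0.990 to 0.998), Klf10, Sf3b1 and Ppp6r3 to Il6st (0.981 to 0.984), Cnppd1, Smurf1 and Wdr81 to Jak1 (0.994 to 0.997), and Lrrc8a, Yaf2 and Ncs1 to Jak2 (0.994 to 0.998). Map7, Pias2 and Kat2b were nearest to Stat3 (0.994 to 0.995), Pole, Fnbp1 and Rtel1 to Socs3 (0.977 to 0.997), Rcor2, Ccnd1 and Atp5j to Pim1 (0.987 to 0.993), and Pcsk6, Stmn2 and Palm3 to Gbx2 (0.989 to 0.992). No gene of the 8 was among the 3 nearest of another. Ccnd1, the cyclin gene of the G1 phase, had group means of 77.1 FPKM in control, 31.7 in Dnd1-KD, 79.0 in CDGC6 and 60.8 in CDGC1, which places Dnd1-KD lowest, as for Pim1.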

How the data were processed

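RNA of 8 libraries was analysed from the FPKM values that the authors deposited, which per the file headers are Cufflinks gene tracking tables of 1 library each with an interval around every value. The submitters' processing notes name mm10 and the tools Bowtie, TopHat2, Cuffdiff and Cufflinks. Versions and filters are not given in the sources used here. Per the labels' protocols, libraries came from the TruSeq RNA v2 kit.

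Symbols joined in 1 entry by any library were treated as 1 unit, with FPKM summed over entries. Small RNA genes and entries without a gene name (76.8% to 85.6% of summed FPKM) were left out. The units that reached 1 FPKM in 2 or more libraries (11894, of which 658 hold more than 1 symbol) were fitted with limma 3.58.1 in R 4.3.3 on log2(FPKM + 1), in a single model of all 8 libraries with group means, moderated variances with a trend, and Benjamini-Hochberg adjustment. The fit was tested on simulated data. The interval of a value, taken as 2 standard errors to each side, gave its implied number of fragments. All 8 genes were named in every comparison, and other pathway genes as up to 3 called per list and comparison with the smallest adjusted p. The genes and lists were chosen with earlier results of these data known. Alternatives were other pseudocounts (0.1 and 5), filters, scalings, fits and entries, the replicate number as a block, and each library left out. Python 3.11.15 with pandas 2.3.3 and matplotlib 3.10.9 made the tables and plots.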

Additional observations from a re-analysis of the deposited data

Results flagged for a closer look

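The change against control differed between the derived lines for 6 of the 8 genes, by the test of CDGC1 against CDGC6 itself. In that test 47.2% of all units passed. The Il6st call ended in some of the alternative settings, as given above. The difference on the log2 scale (CDGC1 minus CDGC6) was −1.12 for Lifr, −0.44 for Il6st, 1.16 for Jak2, −0.49 for Stat3, −0.94 for Socs3 and −1.70 for Gbx2, with the errors and adjusted p-values given above. For Jak2 the line CDGC1 was higher than CDGC6, and for the other 5 it was lower.

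Entries without a gene name, which no comparison used, held 2 signals at these genes. No such entry was listed in the control libraries. At the start of Gbx2 an entry at chr1:89931154-89931885 had 1.57 FPKM in the second CDGC1 library, from about 28 implied fragments. Annotated Gbx2 ends at 89931179, so most of that entry lies outside the gene. D130058E05Rik overlaps Gbx2 on the other strand, and the kit does not mark strands. At the start of Socs3 an entry at chr11:117969559-117969971 had 1.87 FPKM in the first CDGC6 library, from about 13 implied fragments. The named Socs3 entry of the first control library, at chr11:117966078-117969987, covers this whole stretch. The separate listing in CDGC6 therefore does not show a signal absent from control. Each of these 2 entries without a gene name was listed in 1 of 8 libraries and touches an annotated exon of the gene.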

How the results depend on the processing

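Of 32 tests on the 8 genes, 21 passed. Of these, 11 kept direction and call under all 19 alternatives, 10 lost the call in some, and 0 reversed. The calls held throughout were Jak1 in Dnd1-KD, and Lifr, Jak2, Stat3, Socs3 and Gbx2 in CDGC1 against control and against CDGC6. With 1 library left out, the number of the 8 genes called ran from 1 to 7 in Dnd1-KD (6 with all libraries), 5 to 7 in CDGC1 (7), 0 to 2 in CDGC6 (2) and 5 to 6 between the derived lines (6). The units called ran from 1364 to 4928 in Dnd1-KD (4310 with all) and from 422 to 2903 in CDGC6 (2220). The low ends of both came without the first control library, and the 0 of the 8 genes in CDGC6 without either control library. A group left with 1 library was assumed to vary like the others. Among other pathway genes 2 of 20 calls in Dnd1-KD, 18 of 26 in CDGC1, 1 of 4 in CDGC6 and 22 of 26 between the derived lines held in every setting that tested the gene.

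With the replicate block, 6 of the 8 genes were called in Dnd1-KD, 6 in CDGC1, where Jak1 was lost (adjusted p = 0.0539), 2 in CDGC6 and 6 between the derived lines, with 3924, 5781, 1654 and 5367 units called. The numbers are not shown to pair the libraries, since differences between first and second libraries correlated between groups at −0.0537 to 0.121 across 11894 units. With 2 libraries per group and no read counts in the files, depth enters only through the deposited intervals, and 89 implied fragments lie behind the lowest Gbx2 entry.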
